A study of Mus musculus with 6 samples.

Results

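The 8 genes described here, Dcp2, Dcp1a, Dcp1b, Edc3, Edc4, Patl1, Lsm1 and Xrn1, encode the core of mRNA decapping and of decay from the 5′ end. They were chosen by symbol from a table of 24062 genes, and all 8 symbols were found in it. Their transcripts were counted in ovulated mouse eggs arrested at metaphase II (MII). The eggs came from super-ovulated 8-week-old females of the line HISRainbow;Figla-iCre, and all carried a tagged version of H3.3, the histone placed on chromatin outside replication. The forms were H3.3R26K-eCFP, with arginine 26 replaced by lysine (called R26K here), H3.3K27R-mCherry, with lysine 27 replaced by arginine (called K27R), and unmutated H3.3-eGFP (called H3.3). Each form had 2 libraries, called biological replicates in the labels. Nothing says that they came from separate females, and the p-values therefore measure only how much these libraries vary. All 3 groups carried the multicolour transgene and the Figla-driven oocyte recombinase, and eggs were told apart by their colour under a confocal microscope. Each form had a fluorescent tag of its own, so tag and substitution cannot be told apart. The labels name no deletion of the egg's own H3.3 genes.

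Most mRNAs are protected at the 5′ end by a cap and at the 3′ end by a poly(A) tail. Once the tail is short, the ring of Lsm1 to Lsm7 with the scaffold Pat1 (Patl1 in mammals) binds the 3′ end and recruits the decapping enzyme, the catalytic subunit Dcp2 with its activator Dcp1, helped by the enhancers Edc3 and Edc4. The uncapped body is then degraded by the exonuclease Xrn1. Growing mouse oocytes store many mRNAs in a stable, translationally silent form and begin to clear them during meiotic maturation. Dcp1a and Dcp2 are known in the mouse as stored mRNAs whose proteins accumulate at that stage.

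The R26K libraries held 39603440 and 33786225 counts, and the other 4 held 10803477 to 12748821. At least 1 count was found for 12135 and 12112 genes in R26K, 10715 and 7405 in K27R eggs, and 7590 and 7392 in H3.3. All 10 egg markers examined had counts in every library, at a summed level of 22083 and 22390 CPM in R26K, 25829 and 29275 in K27R eggs, and 25090 and 27389 in H3.3 (CPM, read counts scaled to a common library size with TMM). For the somatic cells around the egg (cumulus, granulosa), 15 markers were examined, of which 13 and 9 were detected in R26K, 9 and 3 in K27R eggs, and 3 and 9 in H3.3. Their summed level was 2034 and 2017 CPM in R26K, 1922 and 1410 in K27R eggs, and 965 and 1753 in H3.3. Serpine2 alone was at 1914 and 1814 CPM in R26K, 1655 and 1394 in K27R eggs, and 941 and 1241 in H3.3. Lhcgr had no count in any library, and Fshr, Foxl2, Amh and Has2 were below 1 CPM throughout. Ptgs2 stood higher in both H3.3 libraries than in the other 4. Its level there was 23.8 CPM for replicate 1 and 31.4 CPM for replicate 2. Outside H3.3 it had counts only in R26K replicate 1, with 5.02 CPM. Other markers differed between replicates. In H3.3, Tnfaip6, Cyp19a1 and Inha were at 0 CPM in replicate 1 and at 186, 144 and 97.5 in replicate 2. In K27R eggs they were at 86.9, 43.7 and 82.99 CPM in replicate 1 and 0, 15.6 and 0 in replicate 2. In R26K they were at 29.4, 28.3 and 25.3 CPM in replicate 1 and 11.04, 43.8 and 53.5 in replicate 2. Hsd3b1 reached 74.02 CPM in R26K replicate 2. For blood, immune cells, stroma and epithelium, 3 to 5 of 13 markers had counts in each library, led by Pecam1, while Ptprc, C1qa, Lyz2 and both haemoglobin genes had none. Their part in the results below was not tested. Over the 2858 genes that averaged 50 CPM or more, the log2 values of replicates correlated at 0.958 in R26K, 0.783 in K27R and 0.674 in H3.3. Across groups, H3.3 replicate 1 correlated at 0.843 and 0.714 with K27R replicates 1 and 2, and H3.3 replicate 2 at 0.750 and 0.666. All of these but the last were above the correlation of the H3.3 replicates with each other. Correlations of R26K with the other groups lay between 0.465 and 0.621.

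Because the cDNA was primed on poly(A) tails, the annotated 3′ ends of the members are shown first. Maturing oocytes lengthen the tails of mRNAs that carry a cytoplasmic polyadenylation element near the poly(A) signal. The last 100 bases of the longest coding transcript of each gene (GENCODE M21, mouse GRCm38, which is mm10) were searched on the transcribed strand for the element, as TTTTAT or TTTTAAT, and for the signal, as AATAAA or ATTAAA. A signal was found in 7 of the 8 members, with none for Edc3, and in 78.5% of the 19924 genes searched. The element was found in 2 of the 8, Dcp1a and Patl1, and in 17.8% of all genes searched. Sites of Dcp1a, Patl1, Edc4 and Xrn1 follow, as 30-base stretches with the elements and signals in capitals. Those of the other members are not shown, among them the signal of Dcp2, which begins 25 bases before the end. A match describes the letters only.
Dcp1a, first element, chr14:30526985-30527014, plus strand: tttcatcctaaaTTTTATatgtttgcaaat
Dcp1a, second element and signal, chr14:30527015-30527044, plus strand: atatttTTTTAATAAAatttcaaaaccaag
Patl1, element, chr19:11944994-11945023, plus strand: tctgcatttgtTTTTAATgttttccattat
Edc4, signal, chr8:105893186-105893215, plus strand: aaaggcttttggAATAAAagaaagtatgtg
Xrn1, signal, chr9:96057762-96057791, plus strand: gctatgattttgATTAAAgatggaatgacg
In the second Dcp1a stretch the element TTTTAAT and the signal AATAAA share the letters AAT. Both Dcp1a stretches lie in the 3′ UTR, in the last 79 bases of the transcript, and the Patl1 element begins 87 bases before the end.

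The members spanned a wide range of levels, and the order was set per length, as CPM per kilobase of annotated exon. The length joined all annotated exons of a gene, 18585 bases for Xrn1, 8230 for Dcp1a and 8702 for Dcp2. Their longest coding transcripts have 10256, 5576 and 8616 bases. Levels per kilobase and ratios between genes therefore depend on this choice, and the order by transcript length was not computed. Dcp1a was the highest, at a mean of 157 CPM per kilobase over the 6 libraries and a range of 124 to 199, which did not overlap that of any other member. Edc4 followed with a mean of 43.2 and a range of 15.7 to 90.8, and Lsm1 with a mean of 32.6 and a range of 13.7 to 48.8, so that the ranges of Edc4 and Lsm1 overlapped. Dcp2 had a mean of 6.18 and a range of 2.99 to 8.87, below every value of Lsm1. Patl1, at a mean of 4.77 and a range of 0 to 9.53, overlapped both Dcp2 and Xrn1. Xrn1 had a mean of 0.986 CPM per kilobase and reached at most 2.71. Dcp1b stayed at or below 0.334 and Edc3 had no count.

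The order of Edc4 and Lsm1 differed between groups. Per kilobase, Edc4 was at 85.0 and 90.8 CPM in R26K, above Lsm1 at 29.4 and 31.5. In K27R both overlapped, with Edc4 at 27.9 and 15.7 CPM per kilobase and Lsm1 at 13.7 and 41.2. In H3.3, Lsm1 at 48.8 and 30.9 CPM per kilobase was above Edc4 at 17.0 and 22.9.

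**Figure D1:**
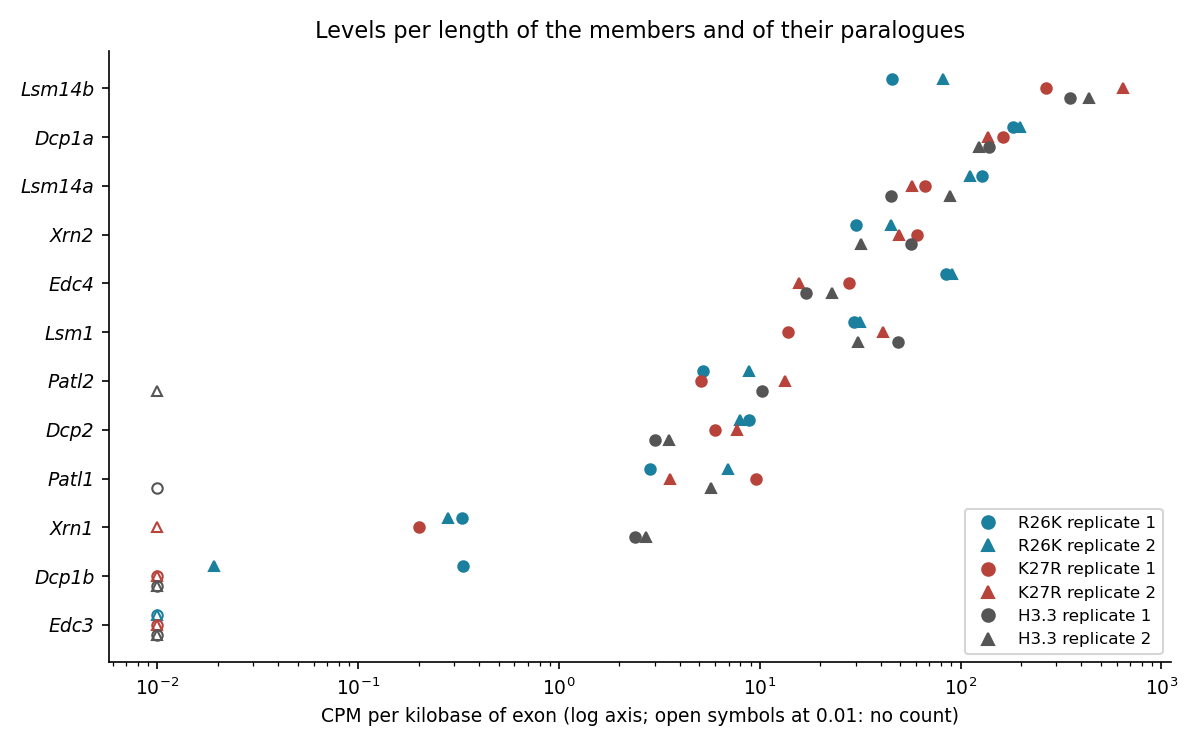
Levels of the 8 members and of 4 paralogues in CPM per kilobase of exon (horizontal log axis), 1 point per library, coloured by group, with open symbols at the left edge where a library had no count. Dcp1a lay at 124 to 199 CPM per kilobase in all 6 libraries, and Xrn1 was at 2.40 and 2.71 in H3.3 but at most 0.330 elsewhere.

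Of the 8 members, 6 passed the filter on low counts and were tested (edgeR quasi-likelihood test across 10667 genes, Benjamini-Hochberg adjusted, threshold 0.05). Dcp1b and Edc3 were not tested. In R26K against H3.3 none of the 6 was called, where 0.619% of all tested genes were. In K27R against H3.3 none was called, where 0% of all tested genes were, and in K27R against R26K none was called, where 0.375% were. At an unadjusted edgeR p under 0.05 the counts were 2 of 6 in R26K against H3.3 (21.7% of all tested genes), 0 of 6 in K27R against H3.3 (7.12%) and 1 of 6 in K27R against R26K (13.2%). By DESeq2, 1 of 6 members was called in R26K against H3.3 (15.4% of all tested genes) and 0 in K27R against H3.3 (6.42%). In K27R against R26K it called 1 (7.12%), and the member called was Edc4 in both cases. These DESeq2 shares are of all 10667 tested genes, also those to which DESeq2 gave no adjusted p. The median log2 fold change of the 6 was 0.66, 0.16 and -0.32 in these comparisons in the same order, beside 0.66, 0.12 and -0.32 over all tested genes. R26K and K27R are both set against the same H3.3 libraries. In bulk libraries fewer eggs with a transcript and less of it per egg cannot be told apart.

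**Figure D2:**
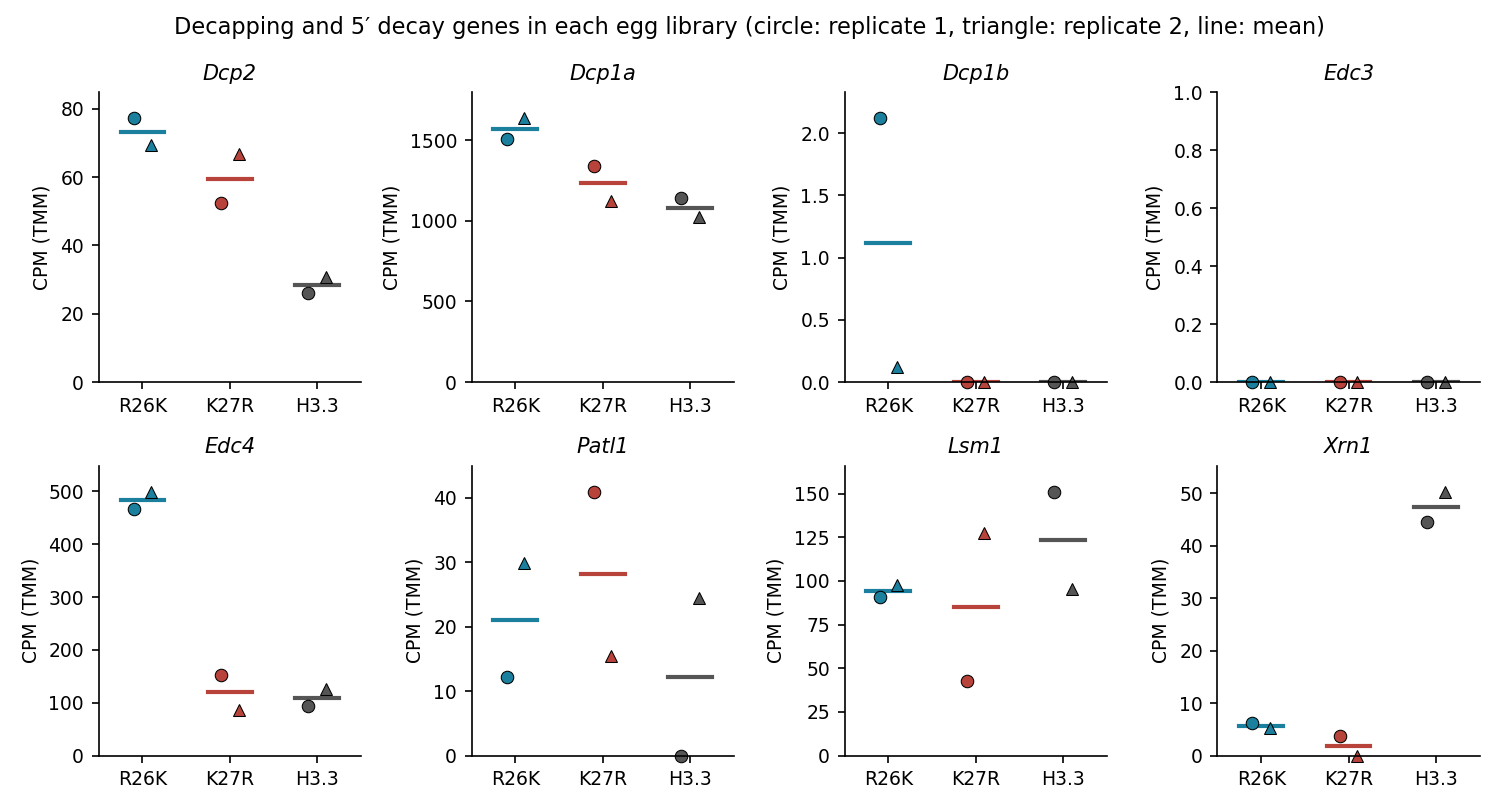
CPM after TMM scaling (vertical axis, starting at 0, its scale set per gene) of each member in the 6 libraries; circles are replicate 1, triangles replicate 2, and lines the mean of each group. Both R26K libraries stood above the other 4 for Dcp2, Dcp1a and Edc4, as for 27% of tested genes. Both H3.3 libraries stood above the other 4 for Xrn1, as for 5.89% of tested genes.

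Dcp2, the enzyme that hydrolyses the cap (chromosome 18, mm10 positions 44380502 to 44424969), was at 77.2 and 69.4 CPM in R26K, 52.3 and 66.8 CPM in K27R eggs, and 26.1 and 30.7 CPM in H3.3. All 4 libraries of the mutated forms lay above both H3.3 libraries, as they did for 12.1% of tested genes. The log2 fold change was 1.37 ± 0.66 (SE, 2 libraries per group) in R26K against H3.3 and 1.07 ± 0.65 in K27R against H3.3, with edgeR adjusted p of 0.264 and 0.552. In K27R against R26K it was -0.30 ± 0.65 (edgeR adjusted p = 1). Its direction was the same under every alternative run, between 1.17 and 1.49 in R26K against H3.3 and between 0.88 and 1.24 in K27R against H3.3.

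Dcp1a, the activator of Dcp2 (chromosome 14, 30479535 to 30527063), was at 1508 and 1634 CPM in R26K, 1339 and 1125 CPM in K27R eggs, and 1141 and 1021 CPM in H3.3. The R26K libraries were above the other 4, which held for 27% of tested genes, and K27R overlapped H3.3. The log2 fold change in R26K against H3.3 was 0.54 ± 0.21 (edgeR adjusted p = 0.217, unadjusted p = 0.0422), below the median of all tested genes (0.66), and that in K27R against H3.3 was 0.19 ± 0.21 (edgeR adjusted p = 0.850). With offsets for GC content and length the value in R26K against H3.3 was -0.06, the opposite sign. Replicates of Dcp1a differed by 1.08-fold in R26K, 1.19-fold in K27R and 1.12-fold in H3.3.

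Per kilobase, Dcp1a exceeded Dcp2 20.7-fold and 24.9-fold in the R26K libraries, 27.1-fold and 17.8-fold in the K27R libraries, and 46.3-fold and 35.2-fold in the H3.3 libraries. The ratio was thus lower in all 4 libraries of the mutated forms than in both H3.3 libraries, which repeats the difference in Dcp2.

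Dcp1b, the paralogue of Dcp1a (chromosome 6, 119175253 to 119221616), had 78 and 4 counts in R26K and none in K27R or H3.3. In R26K these were 2.12 and 0.121 CPM. Dcp1a took 99.9% of the counts of both genes in R26K replicate 1 (55543 of 55621, 95% Wilson interval 99.8% to 99.9%), and all of them in the 4 libraries without a Dcp1b count. The lower bounds there were 99.97% or more, which covers counting error alone, because amplified reads can copy 1 molecule.

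Edc4, a scaffold that links Dcp1a and Dcp2 (chromosome 8, 105880881 to 105894908), was at 467 and 499 CPM in R26K, 153 and 86.3 CPM in K27R eggs, and 93.2 and 126 CPM in H3.3. The R26K libraries lay above the other 4, as they did for 27% of tested genes, and K27R and H3.3 overlapped. This was the tested member with the smallest p in R26K against H3.3, with a log2 fold change of 2.14 ± 0.40, or 4.41-fold, and edgeR adjusted p of 0.0834, which missed the threshold. In K27R against R26K it was -2.01 ± 0.39 (edgeR adjusted p = 0.131), and in K27R against H3.3 it was 0.13 ± 0.38 (edgeR adjusted p = 0.991). Replicates differed by 1.07-fold in R26K, 1.78-fold in K27R and 1.35-fold in H3.3.

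The call on Edc4 depended on the setting. In R26K against H3.3 it passed by DESeq2 (log2 fold change 2.05, adjusted p = 8.1e-05) and with no filter on low counts (edgeR adjusted p = 0.0400), and over the edgeR alternatives without a replicate block the adjusted p lay between 0.0400 and 0.572. With offsets for GC content and length the log2 fold change was 0.39 ± 0.34 in R26K against H3.3 (edgeR adjusted p = 0.572) and -0.64 ± 0.34 in K27R against R26K (edgeR adjusted p = 0.602). The longest transcript of Edc4 had the highest GC content of the 6 tested members, 55.5%, against 41.9% for Xrn1, 42.7% for Dcp2, 47.1% for Lsm1, 47.2% for Patl1 and 48.3% for Dcp1a. The median over tested genes was 48.7%. Exons of Edc4 overlap those of Nrn1l on the same strand over 458 bases, 8.33% of its exon length. Nrn1l was at 112 and 164 CPM in R26K, 119 and 117 in K27R eggs, and 190.3 and 128 in H3.3. For Nrn1l, R26K overlapped both other groups, and both K27R libraries were below both H3.3 libraries.

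**Figure D3:**
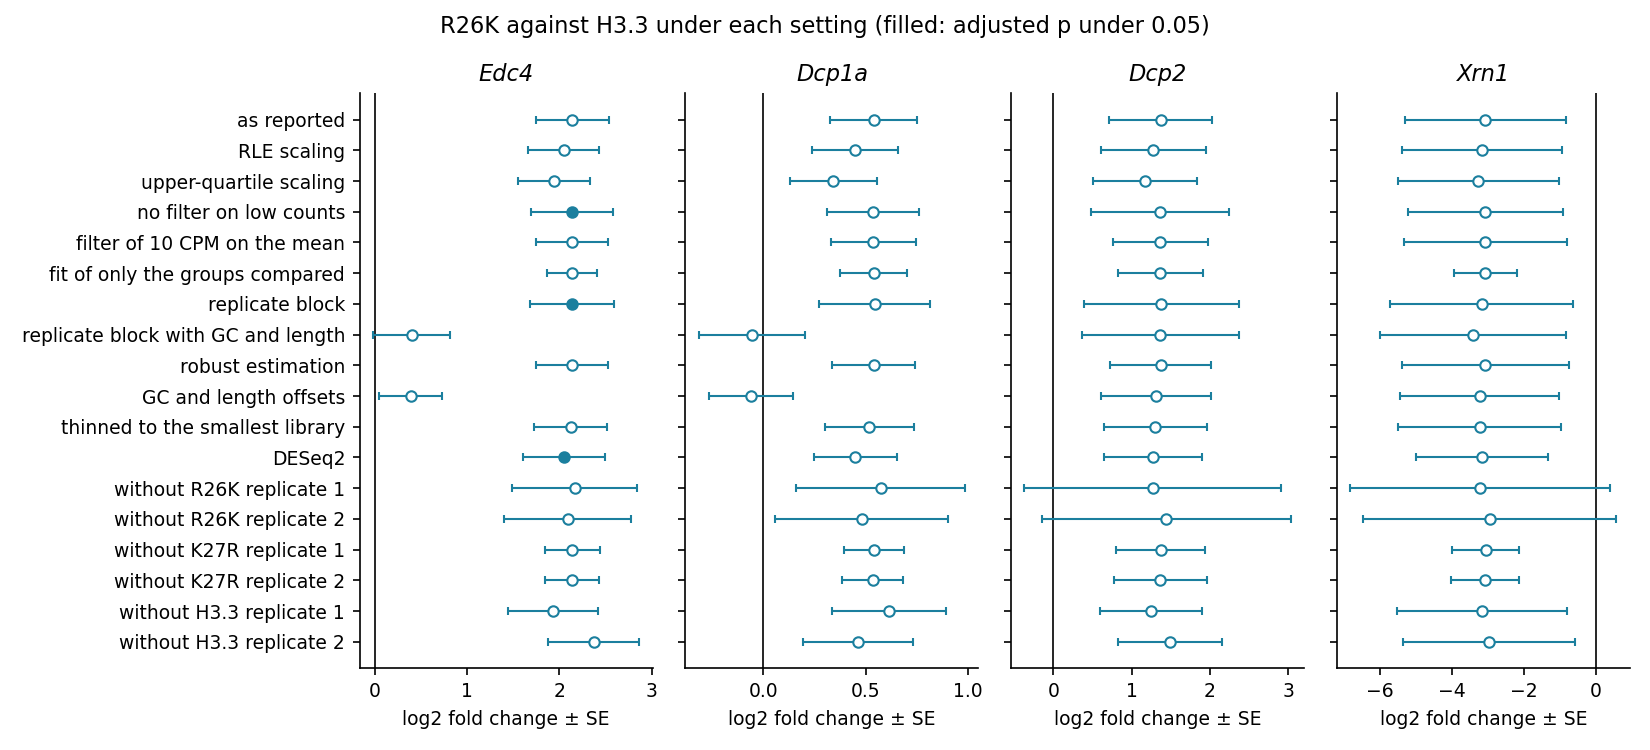
Fitted log2 fold change in R26K against H3.3 with its SE (horizontal axis, scaled per gene) for 4 members as reported and under 17 alternatives, with filled points where the adjusted p was under 0.05. Edc4 stayed near 2 except in both fits with offsets for GC content and length (0.39 and 0.40), where Dcp1a was at -0.06 and -0.05, while Dcp2 (1.31 and 1.37) and Xrn1 (-3.22 and -3.40) kept their sign.

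Edc3, the other enhancer of decapping (chromosome 9, 57708540 to 57752499), had 0 counts in all 6 libraries. Each library allows up to 3 counts, which is 0.0815 and 0.0907 CPM in R26K, 0.244 and 0.285 CPM in K27R eggs, and 0.230 and 0.255 CPM in H3.3. Edc3 was 1 of 9820 genes of the table without a count anywhere. Exons of Edc3 overlap those of Clk3 on the opposite strand over 1284 bases, 22.1% of its exon length, and the other exon bases are not shared with an annotated gene. Clk3 was counted at 170 and 151 CPM in R26K, 85.4 and 53.5 CPM in K27R eggs, and 63.6 and 166 CPM in H3.3. The annotation and the treatment of overlapping reads in the counting are not given in the sources used here, so the 0 describes this table.

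Patl1, the scaffold between the Lsm1 ring and the decapping enzyme (chromosome 19, 11912399 to 11945091), was at 12.2 and 29.8 CPM in R26K, 40.9 and 15.4 CPM in K27R eggs, and 0 and 24.5 CPM in H3.3. The groups overlapped in every comparison, and replicates differed by 2.44-fold in R26K and 2.66-fold in K27R. The SE of its log2 fold changes was 2.4 in all 3 comparisons, which leaves any difference undetermined. Patl2, the paralogue best known from oocytes, was at 12.7 and 21.5 CPM in R26K, 12.5 and 32.4 in K27R eggs, and 24.98 and 0 in H3.3. Patl1 took 49.1% and 58.1% of the counts of the pair in R26K and 76.6% and 32.2% in K27R. Per kilobase of exon these shares were 35.4% and 44.0% in R26K and 65.1% and 21.2% in K27R. In H3.3 it took 0% of the counts in replicate 1 (95% Wilson interval up to 1.16%) and 100% in replicate 2 (from 98.7%). The H3.3 replicates thus lay at opposite ends for this pair.

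Lsm1, the subunit that sets the cytoplasmic ring apart from the nuclear one (chromosome 8, 25785288 to 25803975), was at 90.9 and 97.6 CPM in R26K, 42.5 and 127 CPM in K27R eggs, and 151 and 95.5 CPM in H3.3. The K27R replicates lay on either side of both R26K libraries. The log2 fold change was -0.39 ± 0.63 in R26K against H3.3 and -0.54 ± 0.63 in K27R against H3.3, with edgeR adjusted p of 0.802 and 0.868.

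Xrn1, the exonuclease that degrades the uncapped mRNA (chromosome 9, 95954760 to 96057803), was at 6.14 and 5.20 CPM in R26K, 3.75 and 0 CPM in K27R eggs, and 44.6 and 50.3 CPM in H3.3. Both H3.3 libraries were above the other 4, which held for 5.89% of tested genes. In counts there were 226 and 172 in R26K and 46 and 0 in K27R, against 582 and 592 in the shallower H3.3 libraries. The log2 fold change was -3.06 ± 2.24 in R26K against H3.3 and -4.66 ± 2.42 in K27R against H3.3, with edgeR adjusted p of 0.466 and 0.523, so neither passed the test. DESeq2 gave adjusted p of 0.251 and 0.108. Without K27R replicate 2, the library at 0, the value in K27R against H3.3 was -3.66 ± 1.305 (edgeR adjusted p = 0.433), and without K27R replicate 1 it was -12.96, a fitted value for a lone library at 0 and no bound. In a fit of only R26K and H3.3 the SE was 0.88, with an edgeR adjusted p of 0.0846. Offsets for GC content and length gave -3.22 and -4.98.

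Other genes at the level of Xrn1 in H3.3 were also examined, for Xrn1 alone of the members. The match was made on the group where Xrn1 was high, so the shares below are a description and no test. Of 766 other genes whose mean in H3.3 was within 1.25-fold of that of Xrn1 (47.4 CPM) and which had counts in both H3.3 libraries, 9.14% had no count in K27R replicate 2 and 0.131% had none in K27R replicate 1. At or below the level of Xrn1 stood 4.18% of them in R26K replicate 1, 3.92% in R26K replicate 2 and 1.44% in K27R replicate 1. In all 4 libraries at once, 2 of the 766 stood at or below the highest of the R26K and K27R values of Xrn1. Exons of Xrn1 overlap those of the antisense genes Gm16794 and C78334 over 0.99% and 3.25% of its exon length, and 3.16% of its 50-base stretches occur in other annotated transcripts.

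Xrn2, the nuclear paralogue, was at 119.9 and 178 CPM in R26K, 243 and 197 CPM in K27R eggs, and 226 and 128 CPM in H3.3. H3.3 overlapped both R26K and K27R. Both K27R libraries were above both R26K libraries, as for 17.5% of tested genes. Xrn1 took 4.87% and 2.83% of the counts of the pair in R26K and 1.52% and 0% in K27R (95% Wilson interval of the last up to 0.185%). In H3.3 it took 16.5% and 28.3%. Both H3.3 shares were above those of all other libraries, which repeats the difference in Xrn1. Per kilobase of exon the H3.3 shares were 4.06% and 7.79%, and the highest elsewhere was 1.08%, in R26K replicate 1.

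**Figure D4:**
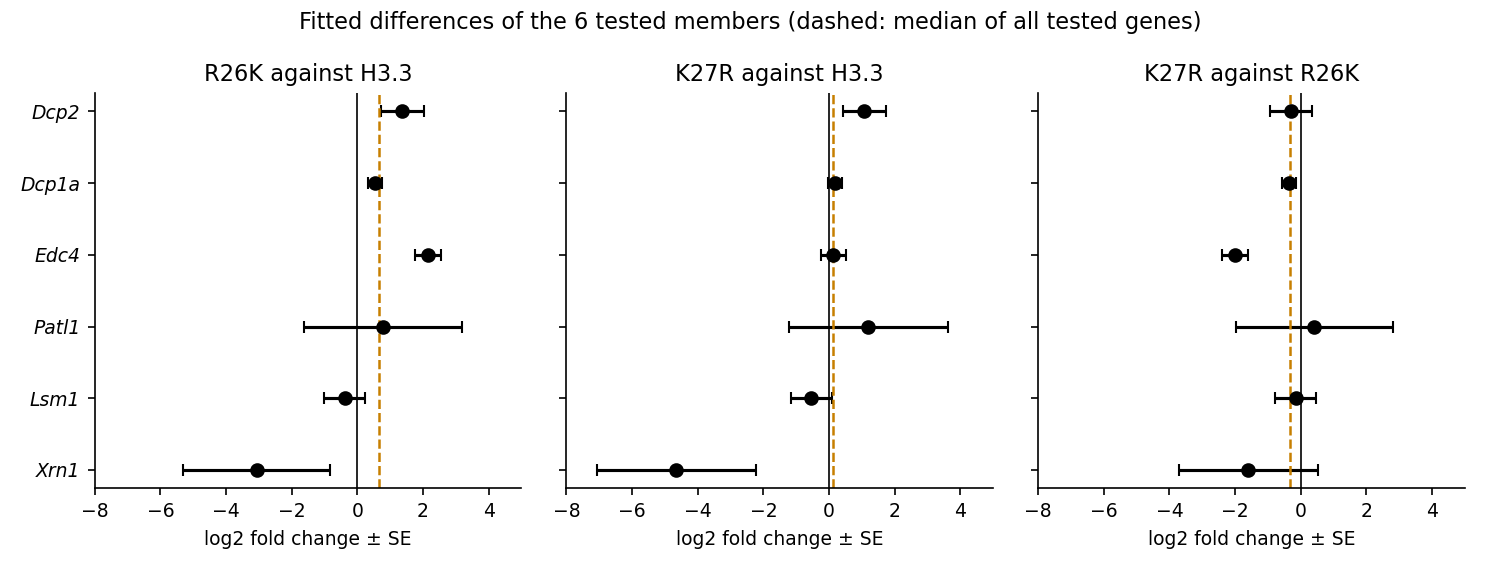
Fitted log2 fold changes with their SE (horizontal axis) of the 6 tested members in the 3 comparisons, with the median of all tested genes as a dashed line. Edc4 is the member farthest above the median in R26K against H3.3 (2.14 beside 0.66), and Xrn1 lies below 0 in all 3 with SE above 2.

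Across all members, the groups R26K and H3.3 did not overlap for 3 that were higher in R26K (Dcp2, Dcp1a and Edc4; 44.9% of tested genes behaved so) and 1 that was lower (Xrn1; 15.2%), where 60.1% of tested genes did not overlap in either direction. In K27R against H3.3, 1 was higher (Dcp2; 15.9%) and 1 lower (Xrn1; 9.62%), beside 25.5% in either direction. In K27R against R26K, 0 were higher (17.5%) and 4 lower (Dcp2, Dcp1a, Edc4 and Xrn1; 36.3%), beside 53.8% in either direction.

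Of the other genes that averaged 50 CPM or more, those whose log2(CPM + 1) followed Dcp2 most closely over the 6 libraries were Rcan3 (Pearson r = 0.991), Fam50a (0.988) and Gabpb1 (0.986), and 19 of 2735 genes reached 0.95. Rcan3 was at 121 and 121 CPM in R26K, 71.7 and 85.6 in K27R eggs, and 17.1 and 21.5 in H3.3. Those closest to Xrn1 were Fbxo30 (r = 0.982), Qser1 (0.980) and Vkorc1 (0.967), and 6 of 2736 reached 0.95. Fbxo30 was at 105 and 112 CPM in R26K, 80.8 and 47.8 in K27R eggs, and 201 and 178 in H3.3. These are descriptions over 6 libraries that share their group structure and depth.

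Another 20 genes of decapping and decay, all found in the table, were listed as partners, and 18 of them were tested. None was called in any of the 3 comparisons by edgeR as reported, where the shares of all tested genes were those given above. Among the edgeR alternatives without a replicate block, Lsm14b passed in both comparisons with R26K when no filter on low counts was used (adjusted p = 0.0137 in R26K against H3.3 and 0.0117 in K27R against R26K) and when either R26K library was left out. With no filter, Pnrc1 and Dcps also passed in R26K against H3.3 (edgeR adjusted p = 0.0400 and 0.0416), as did Dcps without R26K replicate 1 (edgeR adjusted p = 0.0440). At an unadjusted edgeR p under 0.05 there were 4 higher and 2 lower of the 18 in R26K against H3.3, 2 higher in K27R against H3.3, and 2 higher and 3 lower in K27R against R26K. The shares of all tested genes under that limit, in either direction, were 21.7%, 7.12% and 13.2% in the same order. DESeq2 called 3 higher (Dcps, Eif4enif1 and Pnrc1) and 1 lower (Lsm14b) in R26K against H3.3. It called 2 higher in K27R against H3.3 (Dcps and Pnrc1) and 1 higher in K27R against R26K (Lsm14b). The shares of all tested genes called by DESeq2 in either direction were 15.4%, 6.42% and 7.12%. Of the 18 partners, DESeq2 gave an adjusted p to 17, 17 and 16 in the same order, while these shares also count genes without one. The median log2 fold changes of the 18 partners by edgeR were -0.09, 0.12 and -0.27 in that order, beside 0.66, 0.12 and -0.32 over all tested genes. The ring partners described next were chosen after their values were seen. Per kilobase Lsm3 was the highest of the 6 ring partners of Lsm1, at 41.6 to 67.6 CPM per kilobase, and its level was 127 and 114 CPM in R26K, 160 and 163 in K27R eggs, and 132 and 186 in H3.3. Lsm4 had 135 and 117 counts in R26K and none in K27R or H3.3, and Lsm2 had a single count in H3.3 replicate 2 against 302 in H3.3 replicate 1. Reads of Lsm5 and Lsm7 could be shared with annotated copies, since 20.99% and 14.3% of their 50-base stretches occur in other genes.

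Lsm14b, an RNA-binding repressor of stored mRNA in mouse oocytes, had the smallest p of the partners in both comparisons with R26K. It was at 132 and 238 CPM in R26K, 774 and 1855 CPM in K27R eggs, and 1011 and 1263 CPM in H3.3. Both R26K libraries were below both H3.3 libraries, as for 15.2% of tested genes, and below both K27R libraries, as for 17.5%. The log2 fold change was -2.62 ± 0.51 in R26K against H3.3 (edgeR adjusted p = 0.0911) and 2.83 ± 0.51 in K27R against R26K (edgeR adjusted p = 0.113). DESeq2 called both (adjusted p = 2.4e-06 and 6.3e-07), and offsets for GC content and length gave -3.20 in R26K against H3.3. Its paralogue Lsm14a was at 784 and 687 CPM in R26K, 410.2 and 352 in K27R eggs, and 275 and 544 in H3.3. Lsm14a took 85.6% and 74.3% of the counts of the pair in R26K, 34.6% and 15.96% in K27R eggs, and 21.4% and 30.1% in H3.3. The R26K shares were thus above those of the other 4 libraries, which repeats the differences in Lsm14b and Lsm14a. Per kilobase of exon the R26K shares were 73.6% and 57.7%, and the highest elsewhere was 20.0%, in K27R replicate 1.

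In K27R against H3.3 the partner with the smallest p was Dcps, the scavenger enzyme that hydrolyses the cap left after decay from the 3′ end. It was at 58.1 and 27.7 CPM in K27R and at 0 and 0.340 CPM in H3.3 (log2 fold change 7.95 ± 1.76, edgeR adjusted p = 0.522). It was at 74.3 and 83.3 CPM in R26K. The H3.3 libraries held 0 and 4 counts. Of the partners named next, the choice was made after their values were seen. Eif4enif1, which binds the cap-binding protein eIF4E and represses translation, was at 299.6 and 286 CPM in R26K, 168 and 131 in K27R eggs, and 101 and 87.2 in H3.3, with an edgeR adjusted p of 0.0980 in R26K against H3.3. Pnrc1, a regulator of decapping, was at 67.5 and 81.0 CPM in R26K and 11.5 and 1.33 CPM in K27R and had no count in H3.3. Against 3 counts per H3.3 library R26K was at least 306-fold higher, a bound that covers counting error only and not the variation between libraries. The edgeR adjusted p of Pnrc1 in R26K against H3.3 was 0.105, which missed the threshold. Ddx6, the helicase that partners Patl1, stayed at or below 14.9 CPM in all libraries.

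**Figure D5:**
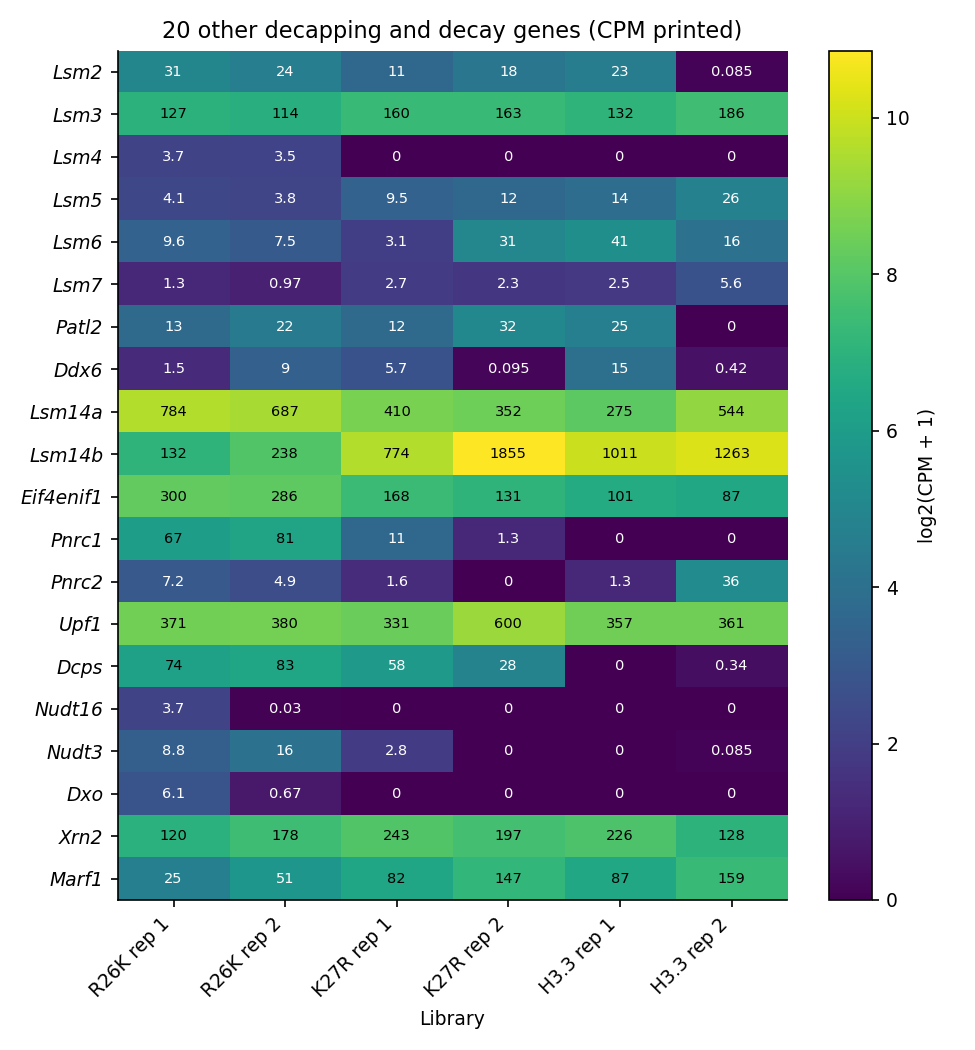
CPM (printed in each cell) of the 20 partner genes in the 6 libraries, coloured by log2(CPM + 1). Lsm14b is low in both R26K libraries (132 and 238 CPM). Pnrc1 and Dcps are higher there than in the other 4 libraries, as were 27% of tested genes, and at or near 0 in H3.3.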

How the data were processed

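Polyadenylated RNA was copied with the SMARTer Ultra Low kit and prepared for sequencing by Nextera, per the labels, and single reads of 50 bases were taken. Tools named in the submitters' processing notes are cutadapt 1.9.1, TopHat2 2.1.0, SAMtools 1.3 and featureCounts, with mouse build mm10. Not given in the sources used here are annotation, strand setting and the treatment of multiply mapped reads. The authors deposited raw whole-number counts of reads per gene, and every column was used.

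CPM were computed after TMM scaling, which corrects for composition but not for GC content or length. Genes were kept by filterByExpr (10667, with at least 99.8% of counts) and tested with edgeR 4.0.16 (R 4.3.3) with 1 mean per group over all 6 libraries (common dispersion 1.63). The SE was taken as the size of the log2 fold change over the root of F. The fit was tested on simulated data. Alternatives included DESeq2 1.42.0 and loess offsets for GC content and length fitted on genes averaging 50 CPM or more (95.5% of tested genes had values). Wilson intervals and floors of 3 counts cover counting error only.

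The 8 members were always named, and of 20 partners those that passed, or else the one with the smallest p, and paralogues of members; for Dcp2 and Xrn1 the 3 most alike genes. Members, lists, this rule and alternatives were chosen with earlier results of these data known. Of the partners first listed, 1 is not reported here. Lengths, GC and overlaps came from GENCODE M21.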

Additional observations from a re-analysis of the deposited data

How the results depend on the processing

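Dcp2 in all 3 comparisons, Xrn1 in all 3 and Edc4 in both comparisons with R26K kept their direction under all 17 alternatives run. Of the members' log2 fold changes under these alternatives, 285 kept their direction and their side of the threshold, 17 reversed and 4, all of Edc4, newly passed. The causes were not tested. In R26K against H3.3, 66 genes were called as reported (43 higher, 23 lower), 241 with no filter on low counts, 157 with a filter of 10 CPM, 0 in a fit of only the groups compared, 30 with GC and length offsets and 1644 by DESeq2. In K27R against H3.3, 0 were called as reported and 685 by DESeq2. In K27R against R26K, 40 were called as reported (18 higher, 22 lower), 156 with no filter, 95 with a filter of 10 CPM and 759 by DESeq2. Upper-quartile scaling gave 31 higher and 27 lower in R26K against H3.3 and 23 higher and 17 lower in K27R against R26K, and moved the median log2 fold change of all genes to 0.47 and -0.10, where TMM gave 0.66 and -0.32. The members called were 1 (Edc4) in R26K against H3.3 with no filter and by DESeq2, and 1 (Edc4) in K27R against R26K by DESeq2.

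Libraries with the same replicate number did not deviate together (correlations of 0.0143, -0.00864 and 0.0210 over 10667 genes), so the numbers are not taken to pair them. With the replicate block 260 genes were called in R26K against H3.3, 1 of them a member (Edc4, edgeR adjusted p = 0.0309), and 195 in K27R against R26K, where Edc4 had an edgeR adjusted p of 0.0505. Of the partners, the block called Lsm14b in both comparisons (edgeR adjusted p = 0.00186 and 0.00153) and Dcps in the first (0.0417). The replicate block with GC and length offsets gave 215 and 145 genes, among them Lsm14b (edgeR adjusted p = 0.000486 and 0.000558) and Upf1 (log2 fold change -2.22 and 2.18, edgeR adjusted p = 0.0151 and 0.0207), which was at 0.06 and 0.31 as reported.

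Leaving out 1 library at a time gave 1 to 193 called genes in R26K against H3.3 (1 without either K27R library, 20 without H3.3 replicate 2, 177 without H3.3 replicate 1, 193 and 186 without R26K replicate 1 and 2). It gave 0 to 5 in K27R against H3.3, and 0 to 140 in K27R against R26K (0 without either K27R library). A lone library was assumed to vary like the other groups.

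With GC and length offsets, without and with the block, the log2 fold change of Dcp1a was -0.060 and -0.055 in R26K against H3.3, -0.0071 and -0.0022 in K27R against H3.3, and 0.053 and 0.053 in K27R against R26K, and that of Edc4 in K27R against H3.3 was -0.25 and -0.23. Lsm1 in K27R against R26K was at 0.093 with upper-quartile scaling and 0.012 with GC and length offsets. Over the fits without 1 library, Patl1 ranged from -0.23 to 11.80 in R26K against H3.3 (the upper value set by a lone H3.3 library at 0) and from -0.45 to 1.198 in K27R against R26K. Edc4 ranged from -0.34 to 0.48 in K27R against H3.3, and Lsm1 from -1.54 to 0.048 in K27R against H3.3 and from -1.15 to 0.43 in K27R against R26K. Patl1, Dcp1b, Edc3 and Xrn1 had no count in at least 1 library. Patl1 had none in H3.3 replicate 1 (12748821 counts in all) and 162 in K27R replicate 2 (10803477 in all). Xrn1 had none in K27R replicate 2 and 592 in H3.3 replicate 2 (11452906 in all). Dcp1b had counts only in the deeper R26K libraries. With counts thinned to the smallest library, Xrn1 was at -3.22 in R26K against H3.3 and -4.59 in K27R against H3.3. The part of depth in the missing counts was not tested.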
